A study of Homo sapiens with 15 samples.

Results

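MALAT1, NEAT1, MIR205HG, GAS5, SNHG1, SFTA1P, LINC02454 and LINC02154 are 8 long noncoding RNAs among the 60649 genes counted in HSC-5 cells after knockout of PRMT5 or WDR77. MALAT1, NEAT1, MIR205HG, GAS5 and SNHG1 were chosen by symbol as abundant nuclear RNAs or hosts of small RNAs. SFTA1P, LINC02454 and LINC02154 were chosen by their rise after knockout in these same libraries, so their values are given below as a description with no test. All 8 symbols matched 1 gene each, and levels were compared across 5 groups of 3 libraries.

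HSC-5 is an established line of human cutaneous squamous cell carcinoma. Cells that expressed Cas9 received lentiviral guide RNAs and were selected with neomycin (G418), a treatment that every group shared. The control, sgNeg, carried the empty vector and was labelled wild type. The sgPRMT5-1 and sgPRMT5-2 groups were labelled PRMT5 Knockout, with guides to exons of the catalytic domain, and the sgWDR77-1 and sgWDR77-2 groups were labelled WDR77 Knockout, with guides to the first WD repeat. PRMT5KO and WDR77KO below mean both guides of a gene pooled, 6 libraries each. Whether clones were picked was not given in the sources used here.

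PRMT5 is the main methyltransferase that places symmetric dimethyl marks on arginine, and WDR77, also called MEP50, is the partner that holds its substrates. Their substrates include Sm proteins of the spliceosome and many RNA-binding proteins. MALAT1 lies in nuclear speckles, next to stored splicing factors, and NEAT1 is the scaffold around which paraspeckles form. MIR205HG carries the hairpin of miR-205, a microRNA typical of squamous and basal epithelium. GAS5 and SNHG1 carry box C/D small nucleolar RNAs in their introns, and their spliced remains are usually destroyed by nonsense-mediated decay. SFTA1P is transcribed from a surfactant-related pseudogene, while no role is given here for LINC02454 or LINC02154.

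The libraries held 5146711 to 6730428 reads assigned to genes, with a median of 5806938. Levels are given as CPM, read counts divided by a scaled library size, and differences as log2 fold changes with their standard error (SE). Tests were two-sided limma voom tests with Benjamini-Hochberg (BH) adjustment over all genes tested, and a gene was called when its adjusted p was under 0.05. All 8 RNAs passed the filter for a mean normalized count of at least 3 in every comparison, LINC02454 against sgNeg by virtue of its knockout libraries. LINC02154, with 1 to 5 reads in each sgNeg library, lay close to that limit in sgNeg. The comparisons with sgNeg share the same 3 control libraries, so they are not independent of each other. Libraries of the groups compared did not overlap, in either direction, for 19.2% of all tested genes in PRMT5KO and 10.6% in WDR77KO against sgNeg. By guide the share against sgNeg was 24.3% for sgPRMT5-1, 50.4% for sgPRMT5-2, 24.0% for sgWDR77-1 and 25.5% for sgWDR77-2. It was 34.7% between the PRMT5 guides, 20.0% between the WDR77 guides and 4.62% between PRMT5KO and WDR77KO. The labels call the libraries biological replicates without saying that they were separate cultures, so p-values measure only the spread between these samples. The fits of PRMT5KO and WDR77KO held no term for the guide. Their p-values therefore treat the libraries of both guides as replicates of a knockout, though the guides can differ. In 3 libraries an unusual share of the listed reads fell outside genes, at 7.16% in sgNeg replicate 2, 6.04% in sgWDR77-1 replicate 2 and 5.70% in sgWDR77-1 replicate 3. The share was 2.75% to 4.26% in the other 12 libraries. The same 3 libraries had the highest share of mitochondrial gene reads, at 2.54%, 2.26% and 2.11%, against 0.729% to 1.73% elsewhere.

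The targeted genes were read first as a check of the labels. PRMT5 stood at 59.1, 49.6 and 67.8 CPM in sgNeg, 33.0, 35.8 and 41.4 in sgPRMT5-1, 44.2, 44.5 and 39.4 in sgPRMT5-2, 54.5, 64.2 and 54.4 in sgWDR77-1, and 79.9, 65.2 and 64.4 in sgWDR77-2. Every PRMT5KO library lay below every sgNeg library, and the fall passed the test (log2 fold change −0.57, SE 0.12, limma voom BH adjusted p = 0.00874). WDR77 stood at 125, 114 and 119 CPM in sgNeg, 134, 119 and 156 in sgPRMT5-1, 126, 129.9 and 119 in sgPRMT5-2, 30.8, 52.0 and 53.3 in sgWDR77-1, and 26.6, 24.9 and 22.0 in sgWDR77-2. It fell in 6 of 6 WDR77KO libraries (−1.86, SE 0.22, limma voom BH adjusted p = 9.00e-05). The squamous identity of the cells showed in all libraries: 10 keratinocyte markers summed to 3338 to 4420 CPM (median 4018), 9 of them stood over 1 CPM on average, and KRT17 was the highest at 928 CPM.

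Per kilobase of spliced transcript, the 8 RNAs spanned a wide range of levels in sgNeg. MALAT1 (ENSG00000251562.8) was highest at 242 CPM per kilobase, followed by MIR205HG (ENSG00000230937.12) at 209, GAS5 (ENSG00000234741.8) at 152, SNHG1 (ENSG00000255717.7) at 39.7 and NEAT1 (ENSG00000245532.9) at 28.8. SFTA1P (ENSG00000225383.8) reached 3.56, LINC02454 (ENSG00000256268.2) 0.563 and LINC02154 (ENSG00000235385.2) 0.360 CPM per kilobase. The top place of MALAT1 turned on sgNeg replicate 2, the sgNeg library with the most reads outside genes. Without it MIR205HG, at 189.8 CPM per kilobase, lay above MALAT1 at 155 and GAS5 at 137, NEAT1 was at 15.1, and LINC02154 (0.251) lay above LINC02454 (0.153). In GRCh38, MALAT1 is annotated as 1 exon at chr11:65497640-65508073 and NEAT1 as 1 exon at chr11:65422774-65445540, both on the plus strand and in the same stretch of chromosome 11. MIR205HG has 5 exons at chr1:209428817-209432848 (plus), GAS5 12 exons at chr1:173858559-173868882 (minus) and SNHG1 11 exons at chr11:62851978-62855953 (minus). SFTA1P has 4 exons at chr10:10784437-10795047 (minus), LINC02454 3 exons at chr12:65589111-65614169 (plus) and LINC02154 2 exons at chrX:13266041-13303452 (minus).

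In PRMT5KO, MALAT1 was the 1 of the 5 abundant RNAs that passed the test, and it was lower. Of all 14071 genes tested there 17.0% were called, 8.73% higher and 8.30% lower, and 3 of the 5 RNAs had an unadjusted p under 0.05. The balance of directions moved with the scaling: 1229 genes were higher and 1168 lower here, 781 and 1517 with library totals alone, and 1614 and 1047 with upper quartile scaling. The 2397 genes called became 483, 673 and 1297 without sgNeg replicate 1, 2 or 3, and 1313, 1320 and 1395 without sgPRMT5-2 replicate 1, 2 or 3. MALAT1 stood at 1452, 4331 and 1783 CPM in sgNeg, 1306, 1202 and 757 in sgPRMT5-1, 1329, 1459 and 1469 in sgPRMT5-2, 1807, 2292 and 2670 in sgWDR77-1, and 1222, 1323 and 1232 in sgWDR77-2. The sgNeg value of 4331 stood far above all others, the sgWDR77-1 libraries came next, and PRMT5KO overlapped sgNeg only at its upper end, where sgPRMT5-2 reached 1469 and the lowest sgNeg library 1452. Means with SD (n = 3) ran from 2522 ± 1576 in sgNeg through 2256 ± 432 in sgWDR77-1, 1419 ± 78.0 in sgPRMT5-2 and 1259 ± 56.0 in sgWDR77-2 to 1088 ± 292 in sgPRMT5-1. Between neighbours in that order, the sgNeg and sgWDR77-1 values overlapped, as did those of sgWDR77-2 and sgPRMT5-1.

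MALAT1 fell in PRMT5KO by 0.89 on the log2 scale (SE 0.27, limma voom BH adjusted p = 0.0398). The call rested on which libraries entered. It was lost without sgNeg replicate 2 (−0.40, adjusted p 0.205), sgNeg replicate 3 (−1.07, 0.0544), sgPRMT5-1 replicate 3 (−0.76, 0.0756), or sgPRMT5-2 replicate 1 (−0.90, 0.0633), replicate 2 (−0.95, 0.0532) or replicate 3 (−0.94, 0.0508). Each guide alone gave a fall of MALAT1 that passed the test: −1.09 for sgPRMT5-1 (SE 0.27, limma voom BH adjusted p = 0.0277, 3 of 3 libraries below sgNeg) and −0.67 for sgPRMT5-2 (SE 0.23, 0.0244, overlapping sgNeg). MALAT1 was the 1 of 5 abundant RNAs called for sgPRMT5-1, where 3.76% of all tested genes were called, and 1 of 3 called for sgPRMT5-2, where 40.1% were called, 20.9% higher and 19.3% lower. With library totals alone the higher and lower calls went from 214 and 316 to 146 and 380 for sgPRMT5-1, and from 2960 and 2733 to 2292 and 3517 for sgPRMT5-2. Over the 10 alternatives the sgPRMT5-1 value ran from −1.14 to −0.56, and all 10 kept the call. For sgPRMT5-1 the call was lost without its replicate 2 (−1.18, adjusted p 0.0679) or replicate 3 (−0.86, 0.102). For sgPRMT5-2 it was lost without its replicate 1 (−0.59, 0.131), replicate 2 (−0.67, 0.0766) or replicate 3 (−0.67, 0.0778), and without sgNeg replicate 2 the fold change shrank to −0.19.

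In WDR77KO, none of MALAT1, NEAT1, MIR205HG, GAS5 and SNHG1 passed the limma voom test (0 of 5, with 0 at unadjusted p under 0.05 and 0 by limma-trend), where 3.39% of all genes tested were called, 0.838% higher and 2.55% lower. The 477 genes called became 213, 259 and 199 without sgNeg replicate 1, 2 or 3, and 319 without sgWDR77-2 replicate 2. The log2 fold change of MALAT1 was −0.42 (SE 0.30, limma voom BH adjusted p = 0.557), and the guides gave different values, 0.02 for sgWDR77-1 (SE 0.31, adjusted p 0.980) and −0.84 for sgWDR77-2 (SE 0.27, 0.0871, 3 of 3 libraries below sgNeg). Leaving out sgNeg replicate 1 brought MALAT1 in sgWDR77-2 past the threshold (−1.15, adjusted p 0.0186). Of the 10 alternatives 3 called it, among them no filter on low counts (−0.85, 0.0136) and the share of reads outside genes as covariate, described below (−0.57, 0.000349), with adjusted p from 0.000349 to 0.102. For sgWDR77-2, 0 of the 5 abundant RNAs were called (MALAT1 alone had an unadjusted p under 0.05, and limma-trend called 0), with 4.97% of all tested genes called.

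NEAT1 did not pass the limma voom test against sgNeg, with calls for the PRMT5 guides under some alternatives. Its levels were 290.2, 1278 and 398 CPM in sgNeg, 342, 374 and 245 in sgPRMT5-1, 345, 345 and 357 in sgPRMT5-2, 294, 978 and 918 in sgWDR77-1, and 457, 449.8 and 414 in sgWDR77-2. The 3 high values belonged to the 3 libraries with over 5% of reads outside genes, and the other 12 libraries lay between 245 and 457 CPM. The knockout groups therefore overlapped sgNeg, whose SD of 542 was close to its mean of 655. Relative to sgNeg, NEAT1 gave −0.69 in PRMT5KO (SE 0.32, limma voom BH adjusted p = 0.150) and 0.01 in WDR77KO (SE 0.41, 0.998). Without sgNeg replicate 1, NEAT1 passed the threshold for sgPRMT5-2 (−1.05, adjusted p 0.00457, against −0.61 and 0.117 with it), and without sgNeg replicate 2 the PRMT5KO value was −0.04. By individual guide the values were −0.76 for sgPRMT5-1, 0.31 for sgWDR77-1 and −0.27 for sgWDR77-2. With no filter on low counts NEAT1 passed the threshold for sgPRMT5-1 (−0.76, adjusted p 1.98e-06) and sgPRMT5-2 (−0.63, 0.0221), and with the covariate described below for sgPRMT5-2 (−0.43, 5.08e-07). Over 10 alternatives it was called in 2 for sgPRMT5-1 (adjusted p 1.98e-06 to 0.763) and in 3 for sgPRMT5-2 (5.08e-07 to 0.802).

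**Figure D1:**
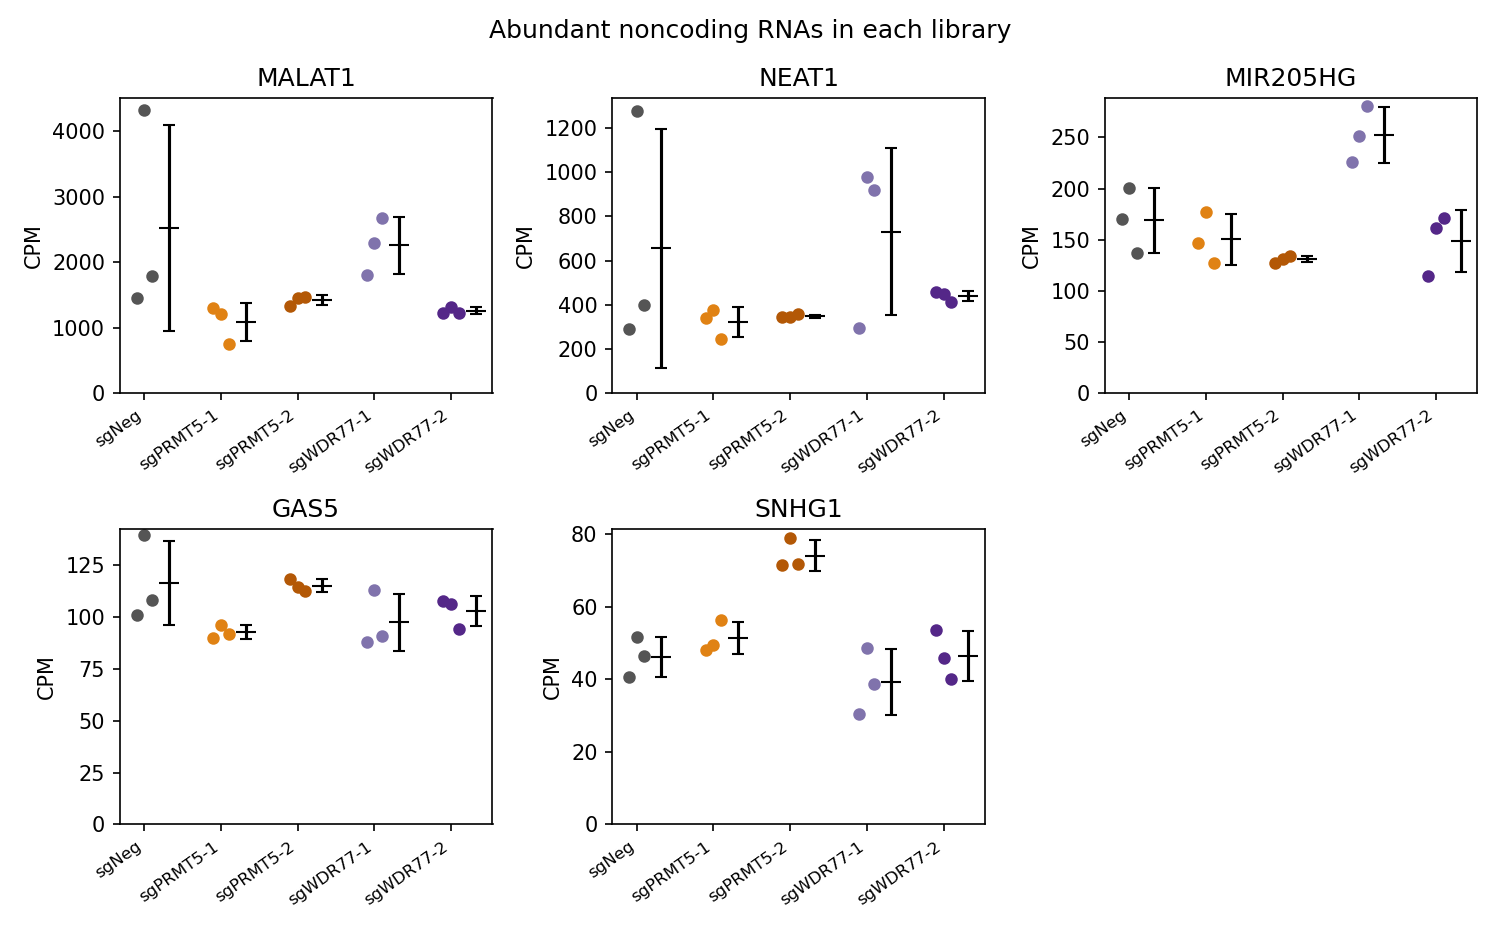
CPM of MALAT1, NEAT1, MIR205HG, GAS5 and SNHG1 in each library (points) by group on the horizontal axis, with the group mean and SD (black bars, n = 3). MALAT1 and NEAT1 reached 4331 and 1278 CPM in sgNeg replicate 2, MIR205HG was highest in sgWDR77-1 and SNHG1 in sgPRMT5-2.

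The share of reads outside genes was read beside both nuclear RNAs. The libraries with 7.16%, 6.04% and 5.70% of reads outside genes had the 3 highest levels of MALAT1 (4331, 2292 and 2670 CPM) and of NEAT1 (1278, 978 and 918 CPM). Under 5% the levels did not keep the order of the share: the sgPRMT5-2 libraries, at 4.03% to 4.26%, had MALAT1 at 1329 to 1469 CPM, while sgNeg replicate 3 and sgWDR77-1 replicate 1, at 3.56% and 3.57%, had 1783 and 1807 CPM. MALAT1 alone took 0.454% of gene reads in sgNeg replicate 2 and 0.0740% in sgPRMT5-1 replicate 3. With that share as a covariate, an alternative chosen after seeing the data, MALAT1 still passed the test in PRMT5KO. Without the libraries over 5%, also chosen after seeing the data, it did not (−0.40, limma voom BH adjusted p = 0.205), and the adjusted p ran from 0.00625 to 0.205 over the 10 alternatives, 8 of which kept the call. That last alternative leaves 2 sgNeg libraries and, for sgWDR77-1, replicate 1 alone, so comparisons of that guide then assume that a lone library varies like the other group. What the share of reads outside genes contributed to these levels was not tested further.

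**Figure D2:**
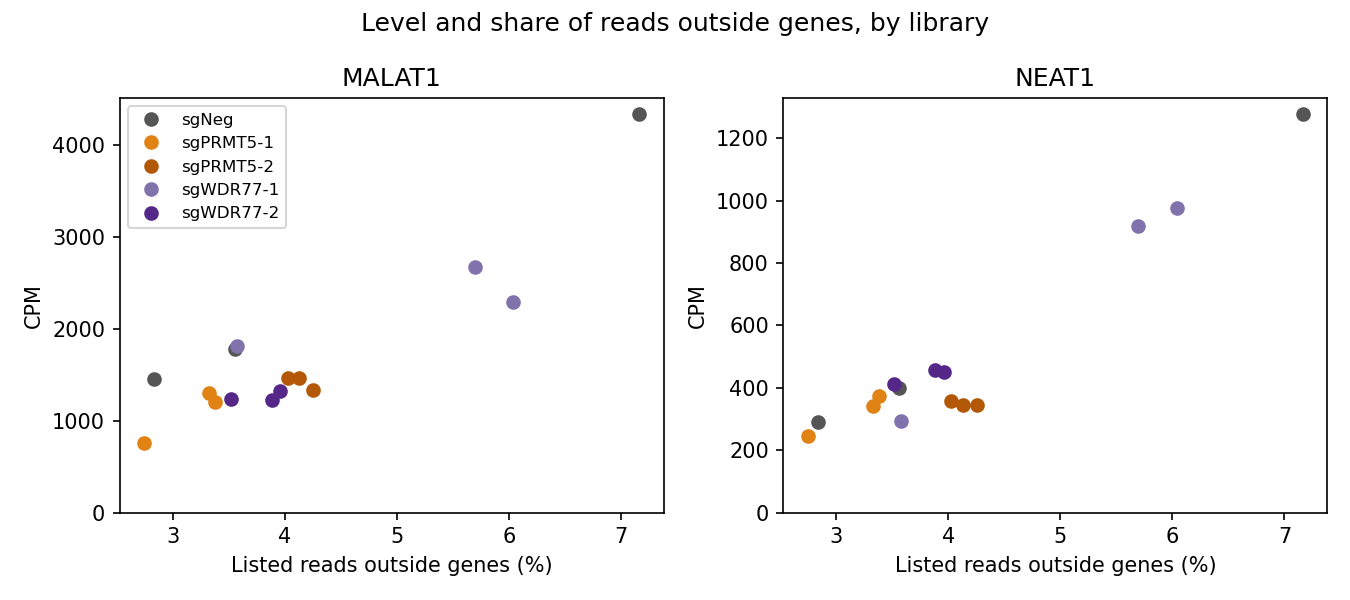
CPM of MALAT1 (left) and NEAT1 (right) against the percent of listed reads that fell outside genes, 1 point per library, coloured by group. The 3 libraries above 5% have the highest level of both RNAs, and the sgPRMT5-1 library at 2.75% has the lowest.

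Proteins of the bodies that hold MALAT1 and NEAT1 were read from lists, beside the 17.0% of all tested genes called in PRMT5KO (8.73% higher, 8.30% lower). All 6 PRMT5KO libraries lay on the same side of all sgNeg libraries for 19.2% of all tested genes. Of 24 nuclear speckle genes tested in PRMT5KO, 4 rose and 0 fell (12 with an unadjusted p under 0.05), with a list median of 0.21 against −0.01 for all genes. The risers were BCLAF1 (0.59, limma voom BH adjusted p = 0.00614, 6 of 6 libraries above sgNeg), SON, a scaffold of the speckle (0.30, 0.0204, 6 of 6), THRAP3 (0.23, 0.0267, 6 of 6) and SART1, a name chosen after its values were seen. Paraspeckle proteins gave 7 higher and 1 lower of 29 (15 with an unadjusted p under 0.05, median 0.14), including HNRNPM (0.40, 0.00805, 6 of 6 above), HNRNPR (0.24, 0.0308, 6 of 6 above) and SS18L1 (−0.41, 0.0253, 6 of 6 below). Factors that cut or trim the 3′ end of MALAT1 gave 3 higher and 0 lower of 11 (3 with an unadjusted p under 0.05, median 0.19): POP1 (0.52, 0.00923), ELAC2 (0.37, 0.0400) and POP4 (0.45, 0.0412), each above sgNeg in 6 of 6 libraries. ELAC2 is the RNase Z that frees a tRNA-like piece from MALAT1, and POP1 and POP4 are subunits of RNase P, which makes the cut on the other side. By guide, sgPRMT5-1 gave 1 higher of 24 speckle, 1 of 29 paraspeckle and 0 of 11 3′ end genes, with 0 lower, where 3.76% of all tested genes were called. Without sgNeg replicate 1 all 3 counts were 0. For sgPRMT5-2 the same lists gave 17, 14 and 5 higher and 0, 4 and 0 lower, where 40.1% were called. The PRMT5KO list counts hung on single libraries. With replicates 1, 2 and 3 left out in turn, the number of speckle genes called was 0, 2 and 3 for sgNeg, 10, 8 and 2 for sgPRMT5-1 and 2, 1 and 2 for sgPRMT5-2. For paraspeckle genes it was 0, 1 and 3, then 12, 10 and 2, then 1, 1 and 2, and for 3′ end factors 1, 0 and 1, then 3, 3 and 1, then 1, 1 and 1. BCLAF1 and HNRNPM lost the call without sgNeg replicate 1 (0.50 and 0.31, adjusted p 0.0562 and 0.0616), POP1 without sgNeg replicate 2 (0.38, 0.0633), SON without sgNeg replicate 1 or 3 or sgPRMT5-2 replicate 2 (adjusted p up to 0.128), and SS18L1 without sgNeg replicate 1 or 2 or sgPRMT5-2 replicate 1 or 2 (up to 0.137). THRAP3, HNRNPR, ELAC2 and POP4 kept it only when the library left out was sgPRMT5-1 replicate 1 or 2 (up to 0.111, 0.122, 0.152 and 0.196). Of the 10 alternative settings, THRAP3 was called in 7 (adjusted p up to 0.106), HNRNPR in 6 (up to 0.316), ELAC2 in 5 (up to 0.152), POP4 in 6 (up to 0.196), SS18L1 in 8 (up to 0.137) and POP1 in 9 (up to 0.0633), and BCLAF1, SON and HNRNPM in all 10. In WDR77KO, limma voom called 0 of the 24 speckle, 29 paraspeckle and 12 3′ end genes, with 1, 2 and 3 at an unadjusted p under 0.05 and 0 by limma-trend, where 3.39% of all tested genes were called. The paraspeckle count became 1 without sgWDR77-1 replicate 1, and the 3′ end count 1 without sgWDR77-2 replicate 1.

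MIR205HG was highest in sgWDR77-1. The sequences of miR-205 are shown because the microRNA is cut from this transcript. The mature forms of miR-205 are given from RefSeq on GRCh38.p14, with the seed (bases 2 to 8) in capitals, at chr1:209432166-209432187 and chr1:209432203-209432223 on the plus strand, inside the annotated span of MIR205HG.
hsa-miR-205-5p: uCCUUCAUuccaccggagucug
hsa-miR-205-3p: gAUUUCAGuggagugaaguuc
MIR205HG stood at 170.3, 200.3 and 137 CPM in sgNeg, 146, 177 and 128 in sgPRMT5-1, 128, 132 and 134 in sgPRMT5-2, 226, 252 and 280.3 in sgWDR77-1, and 114, 161 and 171 in sgWDR77-2. All sgWDR77-1 libraries lay above all others, all sgPRMT5-2 libraries lay below sgNeg, and sgPRMT5-1 and sgWDR77-2 overlapped sgNeg. Over all tested genes, 24.0% did not overlap sgNeg for sgWDR77-1 and 50.4% for sgPRMT5-2. Group means with SD (n = 3) were 253 ± 27.3 in sgWDR77-1, 169 ± 31.8 in sgNeg, 150.3 ± 24.7 in sgPRMT5-1, 149 ± 30.5 in sgWDR77-2 and 131 ± 3.30 in sgPRMT5-2. The hairpin itself, counted as MIR205, had 107 reads over the 15 libraries (0 to 18 each), too few for a comparison, and mature miR-205 was not measured.

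MIR205HG rose for sgWDR77-1 (0.62, SE 0.15, limma voom BH adjusted p = 0.0457, 3 of 3 libraries above sgNeg), the 1 of 5 abundant RNAs called there, where 2.71% of all tested genes were called, and 7 of 10 alternatives kept the call (adjusted p 0.000490 to 0.0713), 1 of them with a lone sgWDR77-1 library. Replicates 2 and 3 of sgWDR77-1 are those with 6.04% and 5.70% of reads outside genes and 2.26% and 2.11% of mitochondrial reads. With the share outside genes as covariate the call was lost (0.57, 0.0533). It fell for sgPRMT5-2 (−0.36, SE 0.10, 0.00673, 3 of 3 below). The rise for sgWDR77-1 lost the call without sgNeg replicate 1 (0.63, 0.169), replicate 2 (0.74, 0.0521) or replicate 3 (0.47, 0.267), and without sgWDR77-1 replicate 2 (0.63, 0.128) or replicate 3 (0.54, 0.0818). The fall for sgPRMT5-2 lost it without sgPRMT5-2 replicate 1 (−0.31, 0.0674). Pooled over guides, MIR205HG gave −0.27 in PRMT5KO (SE 0.12, 0.128) and 0.20 in WDR77KO (SE 0.22, 0.727). In PRMT5KO it passed the threshold without sgNeg replicate 3 (−0.44, 0.0405) or sgPRMT5-1 replicate 2 (−0.35, 0.0366). Values for the remaining guides were −0.18 for sgPRMT5-1 (SE 0.13, 0.469) and −0.19 for sgWDR77-2 (SE 0.15, 0.508). Among 21 microRNA hosts tested in PRMT5KO, MIR205HG included, 0 were called by limma voom and 0 by limma-trend, with 3 at an unadjusted p under 0.05 and a median of −0.07, where 17.0% of all tested genes were called. Leaving out sgNeg replicate 3 or sgPRMT5-1 replicate 2 gave 1 call. In WDR77KO the count was 0 of 20, with 0 at an unadjusted p under 0.05 and 0 by limma-trend, beside 3.39% of all tested genes.

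GAS5 and SNHG1, both snoRNA hosts, differed in their pattern. Their promoters are shown because both RNAs, with other snoRNA hosts, were higher with sgPRMT5-2 than with sgPRMT5-1. Each window is from RefSeq on GRCh38.p14, runs from 250 bases before to 50 after the annotated start on the minus strand, and is at chr1:173868996-173869295 for GAS5 and chr11:62855836-62856135 for SNHG1. The RefSeq starts differ from those of the annotation used for the exons. Capitals mark matches, on either strand, to CCAAT in GAS5 and to TATAAA or GGGCGG in SNHG1.
GAS5: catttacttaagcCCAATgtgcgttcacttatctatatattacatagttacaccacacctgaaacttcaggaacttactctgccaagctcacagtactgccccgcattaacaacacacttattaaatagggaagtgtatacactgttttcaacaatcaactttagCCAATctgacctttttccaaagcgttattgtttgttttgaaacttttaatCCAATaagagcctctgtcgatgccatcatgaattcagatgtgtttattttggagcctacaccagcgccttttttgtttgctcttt
SNHG1: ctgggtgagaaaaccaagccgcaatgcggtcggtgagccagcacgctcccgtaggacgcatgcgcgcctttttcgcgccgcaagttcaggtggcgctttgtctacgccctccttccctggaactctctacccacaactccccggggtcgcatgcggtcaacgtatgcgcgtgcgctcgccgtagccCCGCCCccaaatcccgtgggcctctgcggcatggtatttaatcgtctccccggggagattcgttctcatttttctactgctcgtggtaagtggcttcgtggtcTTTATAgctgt
GAS5 held 3 matches to CCAAT, and SNHG1 held 1 to TATAAA and 1 to GGGCGG. The TATAAA match in SNHG1 reads on the strand opposite to the gene and lies after the annotated start. Over the 35114 windows of this size, 34.6% held CCAAT, 11.5% TATAAA and 45.0% GGGCGG on either strand. Neither window held CACGTG (in 7.26% of windows) or TGACTCA (in 4.95%). Of the 8 RNAs, 5 had a window in the table; NEAT1, SFTA1P and LINC02154 were missing from it. MALAT1 had 2 windows with 5 matches to GGGCGG in the first and 1 to TATAAA in the second, LINC02454 held 1 GGGCGG and MIR205HG 1 CCAAT.

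GAS5 stood at 101, 139.7 and 108 CPM in sgNeg, 90.1, 96.4 and 92.1 in sgPRMT5-1, 118, 115 and 113 in sgPRMT5-2, 88.3, 113 and 90.9 in sgWDR77-1, and 108, 106 and 94.5 in sgWDR77-2. All sgPRMT5-1 libraries were below sgNeg, where 24.3% of all tested genes did not overlap, and those of the other groups overlapped it. GAS5 did not pass the test against sgNeg (1 of 10 alternatives called it for sgPRMT5-1, adjusted p 0.0132 to 0.405), with −0.33 for sgPRMT5-1 (SE 0.11, limma voom BH adjusted p = 0.121), −0.01 for sgPRMT5-2 (0.945), −0.22 for sgWDR77-1 (0.471) and −0.18 for sgWDR77-2 (0.440). Pooled over guides the values were −0.17 in PRMT5KO (0.323) and −0.21 in WDR77KO (0.440). ZBTB37, with 2423 reads over the 15 libraries, overlaps GAS5 on the opposite strand. Whether the counting used strand was not given in the sources used here, so reads of such partners may not be separated.

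SNHG1 was highest in sgPRMT5-2. It stood at 40.6, 51.6 and 46.3 CPM in sgNeg, 48.1, 49.4 and 56.3 in sgPRMT5-1, 71.4, 78.9 and 71.7 in sgPRMT5-2, 30.5, 48.5 and 38.7 in sgWDR77-1, and 53.5, 45.8 and 40.0 in sgWDR77-2. All 3 sgPRMT5-2 libraries exceeded all 12 others, and the other knockout groups overlapped sgNeg. Between sgPRMT5-2 and sgNeg, 50.4% of all tested genes did not overlap. The rise for sgPRMT5-2 passed the test (0.68, SE 0.10, limma voom BH adjusted p = 1.58e-05), making SNHG1 the 1 higher RNA beside the 2 lower ones, MALAT1 and MIR205HG. In sgPRMT5-1 the value was 0.14 (SE 0.12, 0.586), in PRMT5KO 0.40 (SE 0.16, 0.0979), in WDR77KO −0.12 (SE 0.15, 0.765), and in sgWDR77-1 and sgWDR77-2 −0.22 (0.530) and −0.01 (0.987). The pooled PRMT5KO value crossed the threshold without sgPRMT5-1 replicate 1 (0.48, 0.0282), and in 2 of 10 alternatives (adjusted p 0.0160 to 0.148). The snoRNAs in the introns of SNHG1 had 0 reads in all libraries, so the host is the readout of this locus here.

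The snoRNA hosts were read as a list, first in PRMT5KO. Of 24 tested there, 1 rose and 2 fell (8 with an unadjusted p under 0.05), with a median of 0.12 against −0.01 for all genes, of which 17.0% were called. ZFAS1 fell by 0.55 (limma voom BH adjusted p = 0.0127, 6 of 6 libraries below sgNeg) and SNHG29 by 0.27 (0.0255, 6 of 6 below), while SNHG7 rose (0.65, 0.0381, 6 of 6 above). ZFAS1 lost the call without sgNeg replicate 1 (−0.56, 0.0572), SNHG29 without sgNeg replicate 1 or 2 or sgPRMT5-2 replicate 1 (adjusted p up to 0.131), and SNHG7 in 7 of 9 cases, all but those without sgPRMT5-1 replicate 1 or 2 (up to 0.165). Of 10 alternatives, ZFAS1 was called in 10, SNHG29 in 8 (up to 0.0697) and SNHG7 in 7 (up to 0.108). The list count was 0 without sgNeg replicate 1, 1 without sgNeg replicate 2 or sgPRMT5-2 replicate 1, and 5 without sgPRMT5-1 replicate 1 or 2. Guide sgPRMT5-2 alone gave 10 higher and 2 lower of 24 (13 with an unadjusted p under 0.05, median 0.39), where 40.1% of all tested genes were called, 20.9% higher and 19.3% lower. In turn sgPRMT5-1 gave 0 higher and 1 lower of 23 (6 with an unadjusted p under 0.05), the 1 being ZFAS1 (−0.66), where 3.76% of all tested genes were called. That count became 0 without sgNeg replicate 1 or sgPRMT5-1 replicate 2 and 2 without sgNeg replicate 3. In WDR77KO limma voom called 0 of 23, with 3 at an unadjusted p under 0.05 and 0 by limma-trend, beside 3.39% of all tested genes. The count became 1 without sgNeg replicate 1 or sgWDR77-2 replicate 1.

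**Figure D3:**
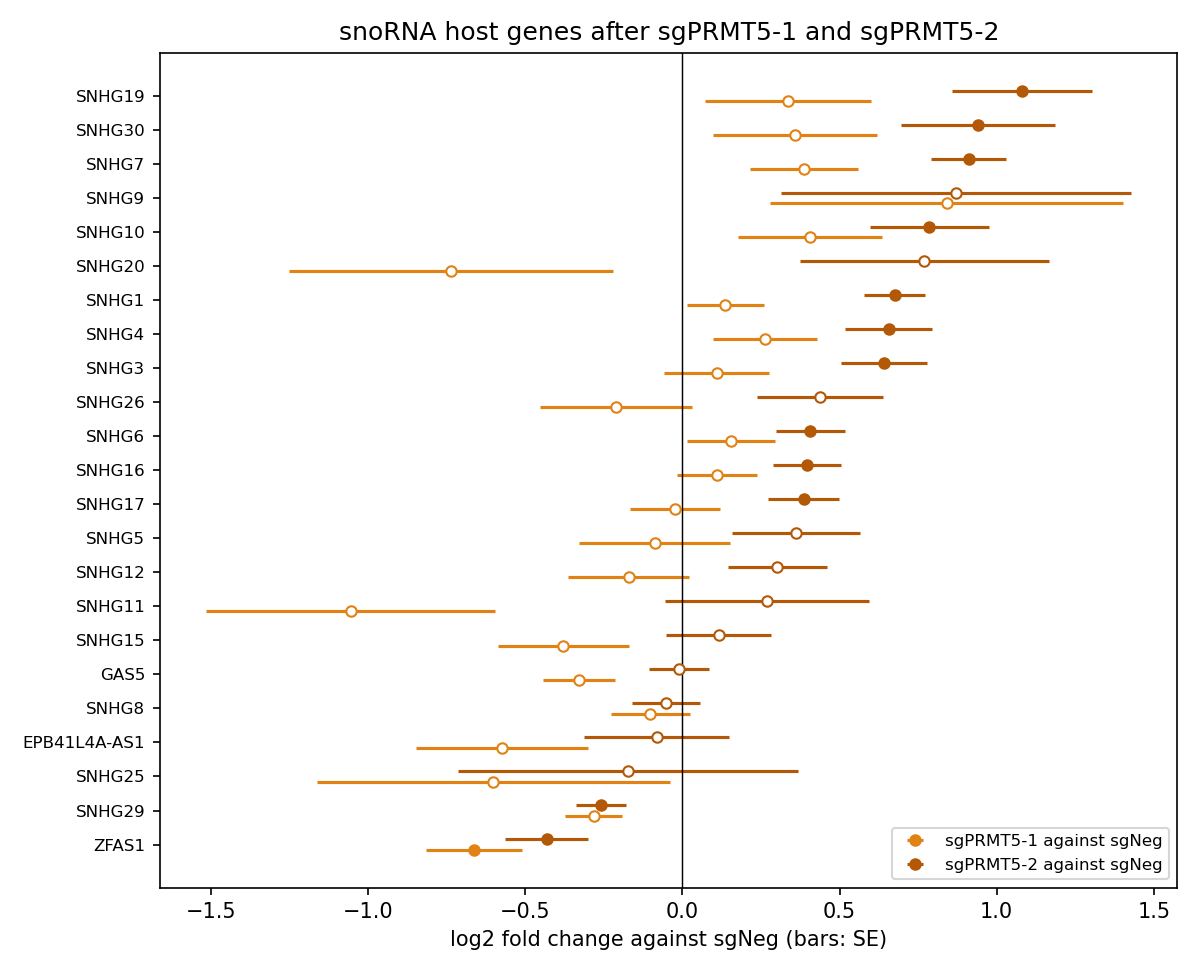
Log2 fold change against sgNeg (points, bars SE) of the snoRNA hosts tested with both guides, for sgPRMT5-1 (light) and sgPRMT5-2 (dark), where filled points had an adjusted p under 0.05 and open points did not. SNHG1 lay at 0.14 for sgPRMT5-1 and 0.68 for sgPRMT5-2, and ZFAS1 was below 0 for both.

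Core proteins of the particles that snoRNAs form, and of their assembly, were higher in PRMT5KO at 7 of 15 genes and lower at 0 (9 with an unadjusted p under 0.05, median 0.30), where 17.0% of all tested genes were called, 8.73% higher. They included ZNHIT6, an assembly factor of box C/D particles (0.51, limma voom BH adjusted p = 0.00938), SHQ1, which assembles box H/ACA particles (0.55, 0.0102), and DKC1, their pseudouridine synthase (0.54, 0.0143), all above sgNeg in 6 of 6 libraries. ZNHIT6 lost the call without sgNeg replicate 1 (0.42, 0.0746), SHQ1 without sgNeg replicate 2 (0.53, 0.0560) and DKC1 without sgNeg replicate 1, 2 or 3 (0.49, 0.58 and 0.53, adjusted p 0.0918, 0.0554 and 0.0556). The count was 1 without sgNeg replicate 1 or 2, 4 without sgNeg replicate 3, sgPRMT5-1 replicate 3, or sgPRMT5-2 replicate 1 or 3, and 3 without sgPRMT5-2 replicate 2. Of 20 factors of nonsense-mediated decay, which degrades spliced GAS5 and SNHG1, 3 were higher and 0 lower (7 with an unadjusted p under 0.05, median 0.12), against the same 17.0%. These were MAGOH (0.34, 0.0108), CASC3 (0.27, 0.0314) and UPF1 (0.30, 0.0448), again above sgNeg in 6 of 6 libraries. MAGOH lost the call without sgNeg replicate 1 (0.28, 0.0740). CASC3 kept it only when an sgPRMT5-1 library was left out (up to 0.134), and UPF1 only without sgPRMT5-1 replicate 1 or 2 (up to 0.189). Of the 10 alternatives, UPF1 was called in 5 (adjusted p up to 0.119), CASC3 in 7 (up to 0.121), SHQ1 in 9 (up to 0.0560) and DKC1 in 9 (up to 0.0554), and MAGOH and ZNHIT6 in all 10. In the decay list the count was 0 without sgNeg replicate 1, 1 without sgNeg replicate 3 or any sgPRMT5-2 library, 2 without sgNeg replicate 2 or sgPRMT5-1 replicate 3, and up to 4 otherwise. By guide, sgPRMT5-1 gave 1 higher and 0 lower of 15 particle proteins and 0 of 20 decay factors, where 3.76% of all tested genes were called. For sgPRMT5-2 these were 10 higher and 0 lower, and 9 higher and 3 lower, where 40.1% were called. In WDR77KO limma voom called 0 of 15 particle proteins and 0 of 20 decay factors, with 0 and 4 at an unadjusted p under 0.05 and 0 by limma-trend for both, beside 3.39% of all tested genes.

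SFTA1P, LINC02454 and LINC02154 had few reads. SFTA1P had 13, 16 and 15 reads in sgNeg, 22, 32 and 26 in sgPRMT5-1, 65, 57 and 57 in sgPRMT5-2, 45, 37 and 38 in sgWDR77-1, and 28, 40 and 32 in sgWDR77-2. In CPM these were 2.20, 2.63 and 2.72, then 3.36, 5.43 and 4.45, then 10.1, 9.69 and 9.64, then 8.31, 6.85 and 6.93, and last 5.39, 7.07 and 5.76. Every knockout library lay above every sgNeg library, sgPRMT5-2 lay above all other groups, and sgWDR77-1 and sgWDR77-2 overlapped each other. Of all tested genes, 19.2% did not overlap sgNeg in PRMT5KO, 10.6% in WDR77KO and 50.4% for sgPRMT5-2 alone. Summed over libraries, SFTA1P had 44 reads in sgNeg (2.51 CPM, exact Poisson 95% interval 1.83 to 3.37), 259 in PRMT5KO (7.10, 6.26 to 8.01) and 220 in WDR77KO (6.73, 5.87 to 7.68). These intervals cover counting error only. The log2 fold change was 1.33 in PRMT5KO (SE 0.45) and 1.38 in WDR77KO (SE 0.27), and by guide 0.74 and 1.93 for PRMT5 (guide 1 first) and 1.55 and 1.24 for WDR77. Without sgPRMT5-1 replicate 1 the PRMT5KO value was 1.54. In such bulk samples, a higher share of cells with the RNA and more RNA in each cell cannot be told apart, and likewise fewer cells of a type and less RNA per cell.

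LINC02454 had 0, 5 and 1 reads in sgNeg, 6, 6 and 12 in sgPRMT5-1, 20, 24 and 24 in sgPRMT5-2, 6, 5 and 6 in sgWDR77-1, and 7, 7 and 3 in sgWDR77-2. MSRB3-AS1, with 29 reads over the 15 libraries (0 to 11 each), overlaps LINC02454 on the opposite strand, and since the strand setting was not given, reads of this pair may not be separated. LINC02154 had 1, 5 and 3 reads in sgNeg, 10, 18 and 13 in sgPRMT5-1, 30, 13 and 24 in sgPRMT5-2, 1, 4 and 4 in sgWDR77-1, and 4, 4 and 4 in sgWDR77-2. In CPM, both RNAs were above sgNeg in all 6 PRMT5KO libraries, whereas WDR77KO overlapped sgNeg for both. Over all tested genes, 19.2% had no overlap with sgNeg in PRMT5KO and 10.6% in WDR77KO. Summed reads of LINC02454 gave 0.343 CPM in sgNeg (6 reads, 0.126 to 0.746), 2.52 in PRMT5KO (92 reads, 2.03 to 3.09) and 1.04 in WDR77KO (34 reads, 0.720 to 1.45). For LINC02154 they gave 0.514 CPM in sgNeg (9 reads, 0.235 to 0.976), 2.96 in PRMT5KO (108 reads, 2.43 to 3.57) and 0.642 in WDR77KO (21 reads, 0.397 to 0.982). Fitted log2 fold changes were 2.99 (SE 0.98) and 1.99 (SE 0.70) for LINC02454 and 2.42 (SE 0.63) and 0.39 (SE 0.59) for LINC02154, PRMT5KO first. With so few control reads they moved with the sgNeg library left out. Without sgNeg replicate 1, LINC02454 gave 2.12 in PRMT5KO and 1.12 in WDR77KO, and without sgNeg replicate 2 it gave 3.86 and 2.86. LINC02154 gave −0.15 in WDR77KO without sgNeg replicate 1 and 0.80 without sgNeg replicate 2, and 1.87 in PRMT5KO without sgNeg replicate 1.

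**Figure D4:**
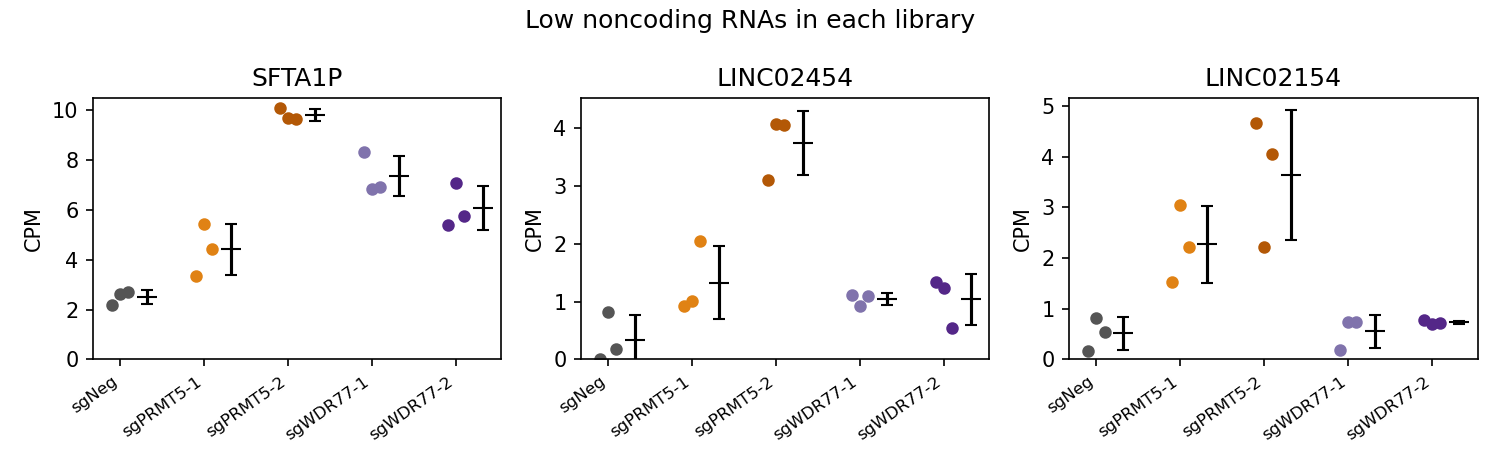
CPM of SFTA1P, LINC02454 and LINC02154 in each library (points) by group on the horizontal axis, with the group mean and SD (black bars, n = 3). SFTA1P was above sgNeg in all 12 knockout libraries and LINC02154 in the 6 PRMT5KO libraries, while the WDR77KO libraries of LINC02154 lay among those of sgNeg.

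The 2 guides to PRMT5 were compared with each other to see how the RNAs vary within a knockout. This comparison holds no sgNeg library. In sgPRMT5-2 against sgPRMT5-1, 3 of the 5 abundant RNAs were higher and 0 lower, where 19.2% of all tested genes were called, 9.94% higher and 9.31% lower. SNHG1 rose (0.54, SE 0.09, limma voom BH adjusted p = 0.000434), as did GAS5 (0.32, SE 0.08, 0.00574) and MALAT1 (0.42, SE 0.11, 0.0122), each with all 3 sgPRMT5-2 libraries above all 3 of sgPRMT5-1. The libraries of these guides did not overlap for 34.7% of all tested genes, in either direction. NEAT1 overlapped between the guides (0.15, SE 0.10, 0.308), and MIR205HG was at −0.18 (SE 0.09, 0.183). Values given without a test were 1.19 for SFTA1P (SE 0.23) and 1.53 for LINC02454 (SE 0.38). Both had all 3 sgPRMT5-2 libraries above those of sgPRMT5-1, beside the same 34.7% of genes. LINC02154 was at 0.69 (SE 0.36), and its libraries overlapped. MALAT1 lost the call without sgPRMT5-2 replicate 2 (0.39, 0.0521) or replicate 3 (0.38, 0.0645), and MIR205HG gained one without sgPRMT5-1 replicate 3 (−0.28, 0.000778). The libraries of the guides also differed in reads outside genes, 4.03% to 4.26% in sgPRMT5-2 and 2.75% to 3.38% in sgPRMT5-1, so that share and the guide cannot be told apart. With the share as a covariate MALAT1 was at −0.51 (adjusted p 0.00994), the opposite direction, and over the 9 alternatives its adjusted p reached 0.332. The covariate also gave calls as lower for NEAT1 (−0.62, 0.000849, up to 0.861 over the alternatives) and MIR205HG (−0.64, 0.00492, up to 0.472), while GAS5 was called in 7 of 9 alternatives (0.00453 to 0.277) and SNHG1 in 9 of 9.

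The snoRNA hosts were also counted between the PRMT5 guides. Of 23 tested in sgPRMT5-2 against sgPRMT5-1, 12 were higher and 0 lower (18 with an unadjusted p under 0.05), with a median of 0.45 against 0.00 for all genes, of which 19.2% were called and 9.94% were higher. Beside SNHG1 and GAS5 the higher hosts included SNHG3 (0.53, limma voom BH adjusted p = 0.000638) and SNHG7 (0.52, 0.0101). The count of hosts was 2 with all 15 libraries in one fit and 4 with the covariate. Leaving out sgPRMT5-1 replicate 1, 2 or 3 gave 6, 5 and 15 hosts, and leaving out sgPRMT5-2 replicate 1, 2 or 3 gave 5, 6 and 6. Speckle proteins had calls in the same direction, 12 of 24 higher and 0 lower, as did snoRNA particle proteins, 6 of 15 higher and 0 lower. These counts ran from 7 to 14 and from 1 to 9 higher as single libraries were left out. Squamous markers went the other way, with 0 higher and 5 lower of 9, and microRNA hosts gave 0 and 1 of 20. Paraspeckle proteins gave 4 higher and 1 lower of 29, decay factors 4 and 2 of 20, other known long noncoding RNAs 7 and 1 of 45, and 3′ end factors 1 and 0 of 11.

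**Figure D5:**
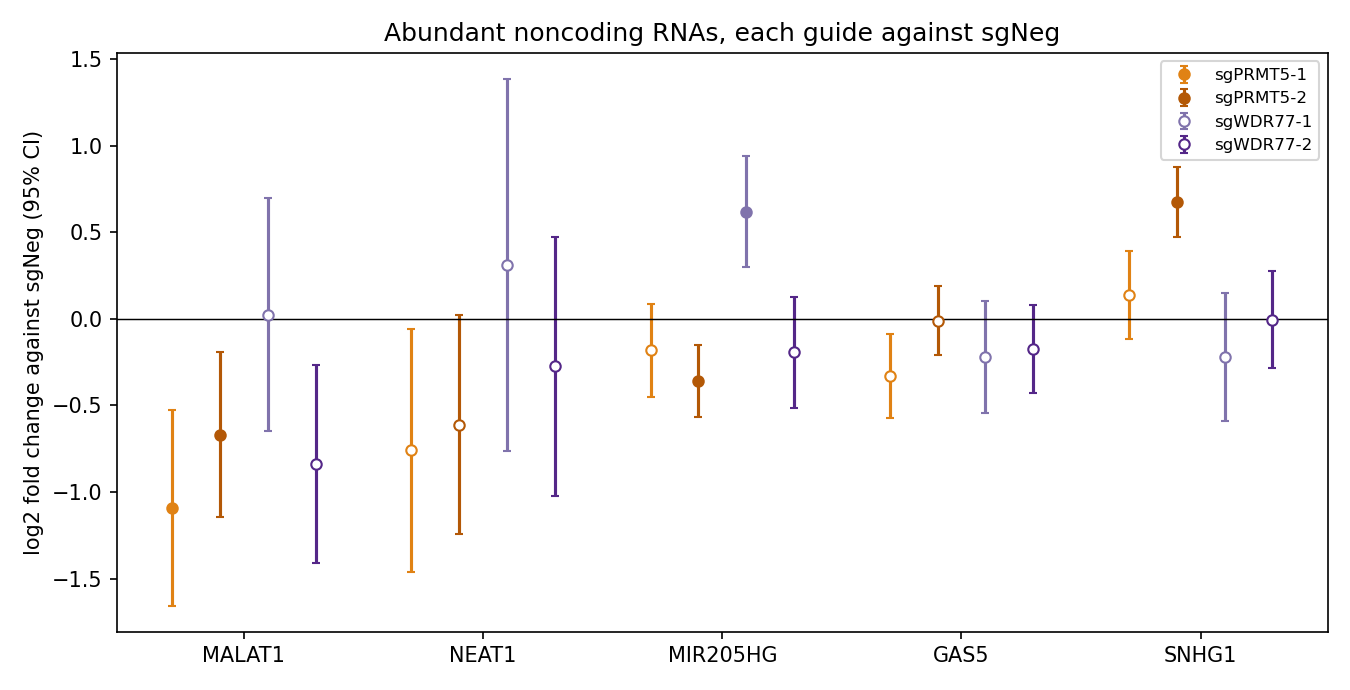
Log2 fold change against sgNeg of the 5 abundant RNAs for each guide (points, bars 95% confidence interval), where filled points had an adjusted p under 0.05 and open points did not. MALAT1 was lower with both PRMT5 guides, MIR205HG higher with sgWDR77-1 and lower with sgPRMT5-2, and SNHG1 higher with sgPRMT5-2.

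Between the guides to WDR77, MALAT1 was lower in sgWDR77-2 (−0.84, SE 0.14, limma voom BH adjusted p = 0.0365, 3 of 3 libraries below sgWDR77-1), the 1 of 5 abundant RNAs called, where 0.121% of all tested genes were called. That count of 17 genes ran from 0 to 156 as single libraries were left out. MALAT1 lost the call without sgWDR77-1 replicate 2 (−0.80, 0.215) or replicate 3 (−0.69, 0.0831), or sgWDR77-2 replicate 1 (−0.82, 0.493), replicate 2 (−0.86, 0.243) or replicate 3 (−0.81, 0.211), and 6 of 10 alternatives kept it (adjusted p 1.24e-06 to 0.0807), 1 of them with a lone sgWDR77-1 library. Replicate 1 of sgWDR77-1 stood apart from its group in other genes, with WDR77 at 30.8 CPM and ZFAS1 at 5.91 CPM against 11.3 and 18.2 in replicates 2 and 3. Without it NEAT1 (−1.13, 7.92e-06) and MIR205HG (−0.88, 0.00478) passed the threshold, against −0.56 (SE 0.33, 0.505) and −0.79 (SE 0.15, 0.108) with it. With all libraries MIR205HG was also called as lower in 4 of 10 alternatives (adjusted p 0.00155 to 0.136), among them no filter on low counts (0.00155), all 15 libraries in one fit (0.00741) and the covariate (0.0181). GAS5 was at 0.07 (0.849) and SNHG1 at 0.24 (0.601). Values given without a test were −0.29 for SFTA1P (SE 0.25), −0.11 for LINC02454 (SE 0.52) and 0.51 for LINC02154 (SE 0.63). The 2 sgWDR77-1 libraries with over 5% of reads outside genes were those with the highest MALAT1 of the 6.

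PRMT5KO was then compared with WDR77KO directly, again with no sgNeg library. Of the 5 abundant RNAs tested, SNHG1 alone was called (0.54 higher in PRMT5KO, SE 0.15, limma voom BH adjusted p = 0.0211), where 14.0% of all tested genes were called, 1120 higher and 842 lower (716 and 1185 with library totals alone). The SNHG1 libraries overlapped, since sgPRMT5-1 lay at 48.1 to 56.3 CPM and the WDR77 guides at 30.5 to 53.5. SNHG1 lost the call without sgPRMT5-2 replicate 1 (0.48, 0.0677), replicate 2 (0.46, 0.0635) or replicate 3 (0.48, 0.0653), sgWDR77-1 replicate 3 (0.51, 0.0562) or sgWDR77-2 replicate 3 (0.51, 0.0525), and without the libraries over 5% (0.55, 0.0932), the 1 of 10 alternatives to lose it. NEAT1 was at −0.68 (SE 0.23, 0.0527), MIR205HG at −0.46 (SE 0.17, 0.0709), MALAT1 at −0.45 (SE 0.19, 0.114) and GAS5 at 0.05 (0.737). Of 10 alternatives, 4 called NEAT1 (adjusted p 0.0453 to 0.233) and 1 called MIR205HG (0.00227 to 0.354). NEAT1 passed the threshold without sgPRMT5-1 replicate 2 (−0.73, 0.0465), sgWDR77-1 replicate 1 (−0.85, 0.0167) or sgWDR77-2 replicate 1 (−0.74, 0.0352), and MALAT1 without sgWDR77-2 replicate 1 (−0.55, 0.0433). MIR205HG passed it without sgPRMT5-1 replicate 2 (−0.54, 0.0395) or sgWDR77-2 replicate 1 (−0.62, 0.00435). Untested values were −0.04 for SFTA1P, 1.03 for LINC02454 and 2.04 for LINC02154, the last with all 6 PRMT5KO libraries above all 6 of WDR77KO. Among 24 snoRNA hosts, 5 were higher in PRMT5KO and 0 lower (10 with an unadjusted p under 0.05): SNHG1, SNHG3 and SNHG7, with SNHG5 and SNHG26 named after their values were seen. Leaving out single libraries gave 3 to 7 of them, and leaving out those with over 5% of reads outside genes gave 0.

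Neighbouring protein-coding genes were read beside the RNAs, where 17.0% of all tested genes were called in PRMT5KO and 3.39% in WDR77KO. FRMD8, 84.1 kb from MALAT1 and 9.25 kb from NEAT1, was not called in PRMT5KO (0.12, limma voom BH adjusted p = 0.480). Next to LINC02454, MSRB3, a methionine sulfoxide reductase 97.7 kb away, rose in PRMT5KO (1.12, 0.00242, 6 of 6 libraries above sgNeg) and in WDR77KO (0.80, 0.0255, 6 of 6). In WDR77KO it lost the call without sgNeg replicate 1, 2 or 3 or sgWDR77-2 replicate 3 (adjusted p up to 0.173). HMGA2, 210.3 kb away on the other side, rose in PRMT5KO (0.81, 0.0417, libraries overlapping) but kept the call only when an sgPRMT5-1 library was the one left out (up to 0.215). SLC3A2 lies 0.051 kb from SNHG1 and rose by less (0.28, 0.0461, overlapping), with the call kept only without sgNeg replicate 3 or sgPRMT5-1 replicate 1 or 2 (up to 0.201), and WDR74 was at 0.46 (0.140). Beside GAS5, CENPL rose (0.56, 0.0120, 6 of 6 above; 0.45 and 0.0842 without sgNeg replicate 1) and RC3H1 was at 0.13 (0.326). PLXNA2 and LAMB3, which flank MIR205HG at 1184 and 182 kb, rose by 0.40 (0.00988, 6 of 6) and 0.70 (0.0299, 6 of 6). PLXNA2 lost the call without sgNeg replicate 1 (0.0563), and LAMB3 kept it only when an sgPRMT5-1 library was left out (up to 0.129). GATA3, 2709 kb from SFTA1P, fell by 0.72 (0.0391), kept only without sgPRMT5-1 replicate 1 or 2 (up to 0.157), and USP6NL was at 0.07 (0.693). TMSB4X, 289 kb from LINC02154, fell by 0.28 (0.0305), lost without sgNeg replicate 1 or 3 or any sgPRMT5-2 library (up to 0.124), and TCEANC was at −0.95 (0.0806). In WDR77KO, MSRB3 alone of these neighbours was called. Of those called in PRMT5KO, HMGA2 (−0.39), SLC3A2 (−0.20), LAMB3 (−0.15) and GATA3 (0.32) had the opposite sign there. CENPL (0.28), PLXNA2 (0.35) and TMSB4X (−0.11) had the same sign. Of 10 alternatives in PRMT5KO, SLC3A2 was called in 6 (up to 0.201), HMGA2 in 7 (up to 0.0785), GATA3 in 7 (up to 0.101), LAMB3 in 8 (up to 0.129) and TMSB4X in 8 (up to 0.0655), and in WDR77KO MSRB3 was called in 8 (up to 0.113).

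Genes whose level followed each RNA most closely over the 15 libraries were picked from 11838 genes (11839 for LINC02454 and LINC02154) by Pearson correlation of log2 CPM, given as a description (n = 15, libraries of 5 groups that share depth and preparation). MALAT1 was closest to N4BP2L2 (r = 0.907) and HOOK2 (0.902), and NEAT1 to RP11-191L9.4 (0.942) and UVSSA (0.928). MIR205HG was closest to RP11-66B24.7 (0.944) and SLC44A3-AS1 (0.923), GAS5 to SETD4 (0.874) and PILRB (0.856), and SNHG1 to UPP1 (0.959) and PLEC (0.950). SFTA1P followed ASAP1 (0.949) and SAMD4A (0.934), LINC02454 followed ZBTB40 (0.927) and TNFRSF9 (0.925), and LINC02154 followed PPARD (0.943) and RAB3B (0.922). Within the 8 RNAs the highest values were 0.846 for MALAT1 with NEAT1, 0.814 for SNHG1 with LINC02154, 0.788 for SFTA1P with LINC02454 and 0.763 for LINC02454 with LINC02154, and MIR205HG with SNHG1 gave −0.645. The pair MALAT1 and NEAT1 share the 3 libraries with many reads outside genes.

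Other known long noncoding RNAs were read for comparison. Of 44 tested in PRMT5KO, 3 rose and 3 fell (14 with an unadjusted p under 0.05, median −0.18), where 17.0% of all tested genes were called. AFAP1-AS1 stood at 112, 122 and 126 CPM in sgNeg, 169, 175 and 205 in sgPRMT5-1 and 247, 223 and 216 in sgPRMT5-2, and rose (0.75, limma voom BH adjusted p = 0.00216, 6 of 6 libraries above). TP53TG1 stood at 5.25, 4.27 and 3.45 CPM in sgNeg, 1.68, 1.87 and 1.37 in sgPRMT5-1 and 1.24, 1.53 and 1.18 in sgPRMT5-2, and fell (−1.51, 0.00420, 6 of 6 below). Both kept the call whichever library was left out. DANCR and TUG1 were the other risers and LINC01503 and OIP5-AS1 the other fallers, named after their values were seen. The list count was 2 without any 1 of the sgNeg libraries or without sgPRMT5-2 replicate 1 or 2, 3 without sgPRMT5-2 replicate 3, 4 without sgPRMT5-1 replicate 3 and 10 without sgPRMT5-1 replicate 1 or 2. In WDR77KO, CASC19 was the 1 of 46 that rose and 0 fell (11 with an unadjusted p under 0.05), where 3.39% of all tested genes were called. CASC19 stood at 37.9, 43.4 and 43.2 CPM in sgNeg, 103, 101 and 119.9 in sgWDR77-1 and 70.3, 73.1 and 73.4 in sgWDR77-2 (1.09, 0.00177, 6 of 6 above), and the count became 2 without sgNeg replicate 2 or sgWDR77-2 replicate 2. Of the abundant small RNAs made by RNA polymerase III, RN7SL1 alone could be tested and was not called (0.80 in PRMT5KO, 0.365; −0.32 in WDR77KO, 0.810). Over the annotated class, 15 of 1288 long noncoding RNAs tested in PRMT5KO were higher (1.16%) and 51 lower (3.96%), beside 9.94% and 9.05% of 12193 protein-coding genes. In WDR77KO 4 of 1300 were higher (0.308%) and 6 lower (0.462%), beside 0.935% and 2.89% of 12194 protein-coding genes. The median log2 fold change of the class was −0.14 in PRMT5KO (−0.01 for all genes) and 0.06 in WDR77KO (0.00). By guide against sgNeg it was −0.16 for sgPRMT5-1, −0.10 for sgPRMT5-2, 0.23 for sgWDR77-1 and −0.04 for sgWDR77-2. For all genes these guide medians were 0.00 to 0.02. The class median was 0.03 between the PRMT5 guides, −0.25 between the WDR77 guides and −0.19 in PRMT5KO against WDR77KO.

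Among the 10 squamous markers, 9 were tested in PRMT5KO, where 1 rose and 3 fell (4 with an unadjusted p under 0.05), beside 17.0% of all genes called. KRT5, the basal keratin, fell from 512, 638 and 817 CPM in sgNeg to 335, 249.7 and 227 in sgPRMT5-1, 61.3, 52.2 and 54.1 in sgPRMT5-2, 43.4, 42.8 and 33.8 in sgWDR77-1 and 101, 91.0 and 81.9 in sgWDR77-2 (−2.41 in PRMT5KO, limma voom BH adjusted p = 0.00650, and −3.42 in WDR77KO, 1.59e-06, 6 of 6 libraries below in each). DSG3 fell too (−0.70, 0.00604, and −0.82, 0.00146, 6 of 6 below in each), and these were the 2 of 9 called in WDR77KO, where 3.39% of all tested genes were called. Without the libraries over 5% DSG3 lost the call in WDR77KO (−0.68, 0.0835, range over 10 alternatives 2.66e-05 to 0.0835). LAMA3 was lower in PRMT5KO (−0.73, 0.00487, 6 of 6), and SFN, named after its values were seen, was the riser. What these shifts of squamous genes had to do with MIR205HG was not tested. Markers of other cells summed to less than the squamous markers. The 6 fibroblast genes summed to 6.53 to 16.2 CPM, led by COL1A1 at 10.7 with COL1A2 at 0. The 6 leukocyte genes summed to 0.360 to 1.86 CPM, led by CD14 at 0.966 with TYROBP and CD3E at 0. Endothelial genes (4) summed to 12.7 to 36.1 CPM, led by CDH5 at 20.0 with KDR at 0, and melanocyte genes (4) to 2.55 to 7.48 CPM, led by PMEL at 3.48 with TYR and DCT at 0. Lung alveolar cells were included because SFTA1P comes from a surfactant-related pseudogene, and their 7 markers summed to 1.19 to 7.39 CPM, led by NKX2-1 at 4.05 with SFTPD at 0. NKX2-1, a transcription factor of lung epithelium, fell in sgPRMT5-2, the group with the most SFTA1P, both against sgNeg (−1.53, limma voom BH adjusted p = 0.00161, 3 of 3 libraries below) and against sgPRMT5-1 (−1.37, 0.0145, 3 of 3 below). Of the 7 genes of these 5 lists tested in PRMT5KO, VWF (−1.92, 0.0181) and PMEL (−1.13, 0.0391) were called in PRMT5KO, both 6 of 6 below. VWF lost the call without sgNeg replicate 1 or 2 (up to 0.0840), and PMEL kept it only without sgNeg replicate 3 or sgPRMT5-1 replicate 1 or 2 (up to 0.143). VWF was called in 8 of 9 alternatives (up to 0.0522) and PMEL in 6 of 10 (up to 0.134). In WDR77KO limma voom called 0 genes of these lists, with 0 at an unadjusted p under 0.05 and 0 by limma-trend. By guide, 1 of 2 endothelial genes tested was higher for sgWDR77-1, where 2.71% of all tested genes were called. For sgPRMT5-2, where 40.1% were called, 1 gene each of the fibroblast, endothelial, melanocyte and lung alveolar lists was lower.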

How the data were processed

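RNA was measured in 15 libraries of HSC-5 cells, 5 groups of 3. Per the labels, RNA was purified with a Qiagen RNeasy kit. Per the methods of the study, it was made into TruSeq libraries, read as single ends, aligned to hg38 with STAR and counted with htseq-count by the authors. The methods and labels name different TruSeq kits, 1 of them stranded, and the annotation release and the strand setting of the counting were not given in the sources used here. The deposited values are read counts per gene that the authors did not normalize, followed by 5 summary lines that entered neither library sizes nor tests and gave the share of reads outside genes. Positions and gene types come from GENCODE, matched for 60507 of the 60649 genes, and the tested genes were those with a mean normalized count of at least 3.

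Counts were scaled by trimmed mean of M values (trims 0.3 and 0.05) and tested in R 4.3.3 with limma 3.58.1 (voom weights, two-sided, Benjamini-Hochberg adjusted p under 0.05). Only the groups compared entered each fit. The fit was tested on simulated counts. For SFTA1P, LINC02454 and LINC02154, chosen by their rise in these libraries, no test is reported, although one between guides had been planned. Members and lists were chosen with earlier results of these data known. The lists were snoRNA hosts, microRNA hosts, paraspeckle, speckle, MALAT1 3′ end, nonsense-mediated decay and snoRNA particle proteins, other long noncoding RNAs, RNA polymerase III RNAs and markers of 6 cell types. Named genes were the up to 3 of each list with the smallest adjusted p among those called in PRMT5KO or WDR77KO, or else its most abundant gene, the nearest tested coding neighbours, and the 2 genes most correlated with each RNA. Some neighbouring genes are not reported here. Alternatives were 3 other scalings, 2 other count filters, the replicate number as a block, all libraries in one fit, limma-trend, leaving out each library and, added after seeing the data, that share as a covariate and leaving out libraries where it was over 5%.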

Additional observations from a re-analysis of the deposited data

Results flagged for a closer look

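Among 22 groups of 6 libraries checked, 3 held a value whose gap to the nearest other took up more of the group's range than Dixon's 95% critical value. In a single normal group chance gives such a gap in about 1 in 20, a rate that need not hold here, since each group pools 2 guides and MALAT1 differed between those to PRMT5. MALAT1 in sgPRMT5-1 replicate 3 stood at 757 CPM, next to 1202 in the nearest PRMT5KO library (gap over range 0.626). NEAT1 in the same library stood at 245 CPM, next to 342 (0.751). LINC02154 in sgWDR77-1 replicate 1 stood at 0.185 CPM, next to 0.707 in the nearest WDR77KO library. That is 1 read against 4 in each of the other 5 libraries of an RNA chosen by its values, so nothing is read from this gap.

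Differences between guides or knockouts that passed the limma voom test with Benjamini-Hochberg adjustment were a log2 fold change of 0.54 for SNHG1 in PRMT5KO against WDR77KO, 0.42 for MALAT1, 0.32 for GAS5, and 0.54 for SNHG1 in sgPRMT5-2 against sgPRMT5-1, and −0.84 for MALAT1 in sgWDR77-2 against sgWDR77-1. In sgPRMT5-2 against sgPRMT5-1, SFTA1P was also 1.19 and LINC02454 1.53 higher on the log2 scale. These 2 RNAs were chosen by their rise in the same libraries, so no test of that difference is given.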

How the results depend on the processing

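Each of 205 results was recomputed under up to 10 alternatives, and 1865 of 2020 values were counted as unchanged. For a tested gene this meant the same side of the threshold, and the same direction if either fit called it. A change of direction with neither fit called was counted as unchanged. Counts of genes called had to stay within a set ratio. The RNAs chosen by their rise had, except between guides, to shift by less than the SD within groups. With a mean count of at least 10, LINC02454 and LINC02154 gave no value in WDR77KO, sgPRMT5-1, sgWDR77-1 or sgWDR77-2 against sgNeg, or between the WDR77 guides. edgeR and DESeq2 were not run. Without libraries over 5%, sgWDR77-1 keeps replicate 1 alone, a lone library assumed to vary like the other group, and sgNeg keeps 2. The cause of the changes below was not tested.

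PRMT5KO against sgNeg: MALAT1 was −0.85 (adjusted p 0.0525) with upper quartile scaling and −0.40 (0.205) without libraries over 5%, range 0.00625 to 0.205. SNHG1 was 0.42 (0.0160) with all 15 libraries and 0.52 (0.0416) with the covariate, range 0.0160 to 0.148. LINC02454 was 2.07 by limma-trend, 3.96 with the covariate and 3.86 without those libraries, LINC02154 1.93 by limma-trend, and SFTA1P 1.70 with the covariate. Without those libraries 673 genes were called.

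WDR77KO against sgNeg: 1193 genes were called with all 15 libraries and 128 without libraries over 5%. LINC02454 was 1.21 by limma-trend and 2.85 without those libraries.

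Guides against sgNeg: sgPRMT5-1 gave 987 genes with no filter and 1427 with the replicate block. For sgPRMT5-2 with all 15 libraries, MALAT1 was −0.66 (0.0503) and MIR205HG −0.35 (0.0722). For sgWDR77-1, MIR205HG was 0.61 (0.0521) with RLE, 0.59 (0.0713) with totals and 0.57 (0.0533) with the covariate, range 0.000490 to 0.0713, and 1333 genes were called with all 15 libraries and 3273, from 1 library against 2, without those over 5%. For sgWDR77-2, 369 genes were called with the block and 430 without those libraries.

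sgPRMT5-2 against sgPRMT5-1: 1078 genes were called with all 15 libraries, where MALAT1 was 0.42 (0.332) and GAS5 0.31 (0.0981). With the covariate MALAT1 was −0.51 (0.00994) and NEAT1 −0.62 (0.000849), both reversed, MIR205HG −0.64 (0.00492), now called, and GAS5 0.27 (0.277). SFTA1P, whose test is not given, was 1.19 with the covariate, but its SE was 0.62 against 0.23 without it.

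sgWDR77-2 against sgWDR77-1: 11 genes were called with totals, 127 with no filter, 342 with all 15 libraries, 1449 with the covariate and 1079, from 1 sgWDR77-1 library, without those over 5%. MALAT1 was −0.86 (0.0584) with totals, −0.84 (0.0593) with a count of at least 10, −0.82 (0.0807) with all 15 and −0.84 (0.0676) by limma-trend, range 1.24e-06 to 0.0807. NEAT1 was 0.58, the reverse direction, against that lone library, which is not read as a result.

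PRMT5KO against WDR77KO: 3804 genes were called with all 15 libraries, 1253 with the covariate and 403 without those over 5%. NEAT1 was −0.70 (0.0495) with RLE, −0.69 (0.0453) with upper quartile, −0.74 (0.0495) with totals and −0.68 (0.0490) by limma-trend, range 0.0453 to 0.233. MIR205HG was −0.46 (0.00227) with all 15, and SNHG1 0.55 (0.0932) without those over 5%.

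Leaving out 1 library gave these ranges. PRMT5KO: 483 to 3562 genes; MALAT1 −1.21 to −0.40, NEAT1 −1.14 to −0.04, MIR205HG −0.44 to −0.14, GAS5 −0.28 to −0.03, SNHG1 0.30 to 0.49, SFTA1P 1.20 to 1.54, LINC02454 2.12 to 3.86, LINC02154 1.87 to 2.82. WDR77KO: 199 to 677 genes, MALAT1 −0.73 to 0.07, NEAT1 −0.42 to 0.65, MIR205HG 0.05 to 0.35, GAS5 −0.30 to −0.06, SNHG1 −0.21 to −0.02, SFTA1P 1.29 to 1.44, LINC02454 1.12 to 2.86, LINC02154 −0.15 to 0.80. sgPRMT5-1: 211 to 510 genes, MALAT1 −1.42 to −0.61. sgPRMT5-2: 4675 to 5668 genes, MALAT1 −0.99 to −0.19, MIR205HG −0.50 to −0.23, SNHG1 0.59 to 0.76. sgWDR77-1: 56 to 1003 genes, MIR205HG 0.47 to 0.74. sgWDR77-2: 293 to 661 genes. sgPRMT5-2 against sgPRMT5-1: 1429 to 4711 genes, MALAT1 0.18 to 0.57, GAS5 0.29 to 0.35, SNHG1 0.48 to 0.61, SFTA1P 0.98 to 1.35, LINC02454 1.30 to 1.87. sgWDR77-2 against sgWDR77-1: 0 to 156 genes, MALAT1 −0.997 to −0.69. PRMT5KO against WDR77KO: 876 to 3178 genes, MALAT1 −0.56 to −0.31, NEAT1 −0.85 to −0.52, MIR205HG −0.62 to −0.36, GAS5 −0.01 to 0.09, SNHG1 0.45 to 0.61.

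Over all groups the replicate numbers showed no pairing. In 30 same-number pairs the correlation of deviations ran from −0.341 to 0.281 (median −0.00437, 4 over 0.1). In 60 other pairs it ran from −0.269 to 0.465. Between sgNeg and sgPRMT5-1 the same-number values were 0.0675, 0.113 and 0.281, against −0.197 to 0.104 for other numbers. Between sgPRMT5-1 and sgWDR77-2 the same-number values were −0.307, 0.143 and −0.341. Whether sgNeg and sgPRMT5-1 samples were paired was not tested. The block added calls of NEAT1 (−0.81, 0.00208) and GAS5 (−0.33, 0.0132) for sgPRMT5-1, NEAT1 for sgPRMT5-2 (−0.64, 0.00554), MALAT1 for sgWDR77-2 (−0.85, 0.0371) and MIR205HG in sgWDR77-2 against sgWDR77-1 (−0.79, 0.0431). Depth limited LINC02454 and LINC02154, with 0 to 5 reads in each sgNeg library.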
